A study of Mus musculus with 6 samples.

Results

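Epithelia that secrete or absorb fluid move chloride, bicarbonate and potassium through a small set of channels, exchangers and pumps. The 10 genes Cftr, Slc26a3, Slc26a6, Slc4a4, Slc12a2, Slc9a3, Kcnn4, Kcnq1, Kcnk1 and Atp12a encode such proteins, and they were followed by name out of 18193 mouse genes with a probe set. They were read in bladders of mouse embryos at embryonic day 18.5, on 3 arrays of Get1 -/- (null) and 3 arrays of Get1 +/- (heterozygous) samples. Get1, also called Grhl3, is a transcription factor of the grainyhead family that acts in surface epithelia, and the series asks which transcripts differ in null bladders, which have defects. Every sample thus carried at least 1 altered Get1 allele, and no wild-type bladder was part of the comparison. The labels give neither the design of the allele nor whether a sample was 1 bladder or a pool, so the p-values measure the spread between these samples, which may be technical.

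In a secreting epithelium, Slc12a2 brings chloride into the cell from the basal side, potassium channels keep the cell interior electrically negative, and Cftr lets chloride and bicarbonate out at the apical side. Slc26a exchangers and Slc9a3 take up salt at the same surface, a combination best known from the gut. The bladder lining is known chiefly as a barrier, with uroplakin plaques on its umbrella cells.

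Values are probe set signals on a linear scale as deposited, and differences are null minus heterozygous on the scale log2(signal + 16), which understates the change of dim genes and cannot go below 4. A gene was represented by its probe set with the highest mean over the 6 arrays. The 30% of genes with the lowest mean (log2 under 5.80) were left out, and 12735 genes were tested with limma, called at an adjusted p under 0.05. Array medians lay between 58.2 and 72.4. The Grhl3 probe set, read as a check of the labels, had signals of 76.6, 21.5 and 120 on null arrays 1 to 3, against 143, 133 and 126 on heterozygous arrays 4 to 6. The groups were separate, the difference of −0.95 did not pass the test (adjusted p = 0.655, limma), and the labels do not say whether it lies inside the deleted part. Of the bladder markers, Upk1b had signals of 6130, 4675 and 4714 in null and 5838, 7562 and 9729 in heterozygous bladders. Snx31 had 1.81, 6.08 and 20.6 in null, under the filter, against 812, 1531 and 1218 in heterozygous bladders, and Upk2 differed by −3.03. While these markers were lower in null on average, 5 of the 12 urothelial markers read further below had differences above 0.

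Of the 10 transporter genes 7 were bright enough to test, 1 was higher in null bladders, Cftr, and 0 were lower (0 also at an unadjusted p under 0.05, limma). Over all genes tested 0.448% were called higher and 0.0628% lower. The shares before adjustment, at a p under 0.05, were 3.63% and 4.3%. At that unadjusted level Cftr, Kcnn4 and Slc26a3 were higher. Groups were separate with null above heterozygous for Cftr, Kcnn4 and Slc12a2, against 6.07% of all genes tested, and with null below heterozygous for 0 of the 10, against 7.36%. Slc26a6, Slc9a3 and Kcnq1 lay below the filter. Slc26a3 passed it through its null arrays, since its heterozygous mean of 5.54 was below it. The median difference was 0.05 over all 10 genes and 0.53 over the 7 tested, beside −0.03 over all genes tested.

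**Figure D1:**
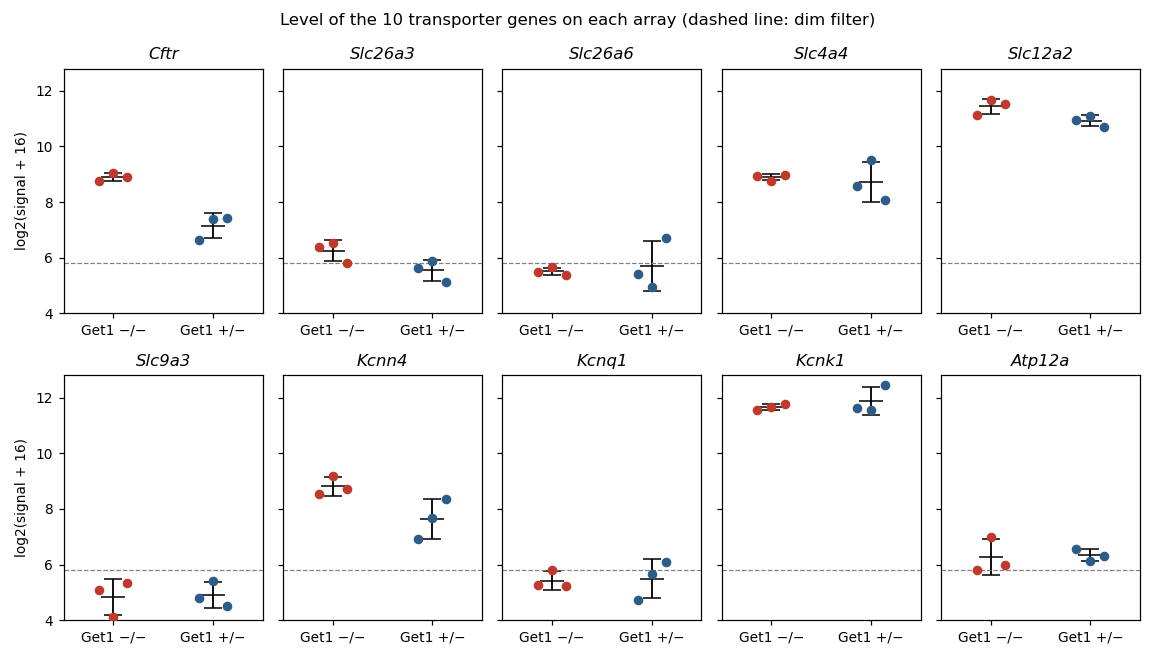
Level of each of the 10 transporter genes, as log2(signal + 16), on the 3 Get1 -/- and 3 Get1 +/- arrays (points), with the mean and SD of each group (bars). The dashed line is the dim filter at 5.80. Cftr, Kcnn4 and Slc12a2 have all null points above all heterozygous points, and Slc26a6, Slc9a3 and Kcnq1 lie around or below the line.

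Cftr, the apical chloride and bicarbonate channel opened by cyclic AMP signalling, rose 3.35-fold in null bladders. Its signal was 419, 507 and 463 on null arrays 1 to 3, against 84.3, 152 and 156 on heterozygous arrays 4 to 6. Every null array was higher than every heterozygous array, and the null arrays lay closer together than the heterozygous ones. The log2 level was 8.90 ± 0.13 in null against 7.15 ± 0.44 in heterozygous bladders (SD over 3 arrays each), a difference of 1.74 (SE 0.27, 95% interval 1.13 to 2.36, adjusted p = 0.0408, limma). The exact permutation p was 0.1, the smallest that 3 against 3 arrays allow. The call was lost whichever array was left out, with differences between 1.49 and 1.88 (adjusted p from 0.072 to 0.192, limma). Each sample title holds a leading number that the labels do not explain, 2 in all titles except that of null 1, where it is 1. Within number 2, without null 1, Cftr differed by 1.81 and was not called (adjusted p = 0.107, limma). Its probe set is of a kind that can also match other transcripts. The other Cftr probe set was near the lowest level on most arrays, with signals of 0.427, 6.26 and 4.17 in null and 2.44, 33.5 and 3.26 in heterozygous bladders. Averaging both reduced the difference to 0.66 (adjusted p = 0.617, limma). In a fit over all named probe sets, in place of 1 per gene, the brighter one was not called (adjusted p = 0.139, limma).

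Slc26a3, the apical exchanger of chloride for bicarbonate known from the colon, was dim in both groups. Its signal was 68.2, 75.5 and 40.3 in null bladders, against 33.8, 42.1 and 18.9 in heterozygous bladders. The groups overlapped, since null 3 was below heterozygous 5. The difference was 0.70 (SE 0.29, adjusted p = 0.603, limma). The probe set that represents Slc26a3 is, like that of Cftr, of a kind that can also match other transcripts. Among the other 3 Slc26a3 probe sets, which were dimmer still, 1 had separate groups, with 24.3, 17.4 and 23.1 in null against 1.71, 4.04 and 4.10 in heterozygous bladders. That probe set differed by 0.96 (adjusted p = 0.410 in a fit over all named probe sets, limma).

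Slc26a6, a related exchanger of small intestine and kidney, was too dim to test. Its signals were 28.6, 34.4 and 25.7 in null and 26.9, 14.8 and 87.3 in heterozygous bladders. The highest value belonged to heterozygous 6, and the groups overlapped.

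Slc4a4, the basolateral cotransporter that brings in sodium with bicarbonate, was well above the filter. Its signal was 472, 418 and 491 in null bladders, against 367, 716 and 256 in heterozygous bladders. The heterozygous arrays lay on both sides of the null arrays. The difference was 0.16 with a 95% interval from −0.66 to 0.99 (adjusted p = 0.958, limma). Of its 5 probe sets a dim one had separate groups, with 23.0, 17.8 and 59.1 in null against 6.00, 4.24 and 2.86 in heterozygous bladders (difference 1.19, adjusted p = 0.512 over all named probe sets, limma). The other 4 overlapped.

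Slc12a2, the basolateral cotransporter through which chloride enters with sodium and potassium, was higher on all null arrays without passing the test. Its signal was 2248, 3241 and 2908 in null bladders, against 1950.3, 2180.4 and 1657 in heterozygous bladders. The lowest null array was close to the highest heterozygous array. The level was 11.44 ± 0.27 in null against 10.92 ± 0.20 in heterozygous bladders (SD over 3 arrays each), a difference of 0.53 (95% interval −0.02 to 1.07, adjusted p = 0.633, limma). Its other 2 probe sets had differences of 0.66 and 0.28 with overlapping groups.

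Slc9a3, the apical exchanger of sodium for protons, had signals of 17.6, 1.22 and 24.3 in null and 11.5, 26.7 and 6.65 in heterozygous bladders. These values lay below the filter in both groups and overlapped.

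Kcnn4, a potassium channel opened by intracellular calcium, had the largest difference after Cftr among the 10 genes. Its signal was 356, 563 and 402 in null bladders, against 104, 190.0 and 309.8 in heterozygous bladders. The groups were separate, while the heterozygous arrays spread widely. The level was 8.81 ± 0.33 in null against 7.65 ± 0.72 in heterozygous bladders (SD over 3 arrays each), a difference of 1.16 (SE 0.38, 95% interval 0.29 to 2.04, unadjusted) that did not pass the test (adjusted p = 0.461, limma). A dimmer Kcnn4 probe set also had separate groups, with 48.0, 52.8 and 72.4 in null against 32.6, 2.46 and 21.2 in heterozygous bladders. Its difference was 1.18 (adjusted p = 0.601 over all named probe sets, limma). With 1 array left out the difference of the brighter one lay between 0.79 and 1.51, and the call was made in 0 of these 6 fits.

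Kcnk1, a tandem-pore potassium channel, was far above the filter. Its signal was 3029.95, 3202 and 3467 in null bladders, against 3178, 3007 and 5672 in heterozygous bladders. Without heterozygous 6, the highest array, the difference was 0.06, against −0.23 with it (95% interval −0.89 to 0.43, adjusted p = 0.911, limma). Kcnq1, a potassium channel that works with Kcne subunits, was too dim to test, at 22.3, 40.0 and 21.1 in null and 10.3, 34.5 and 52.1 in heterozygous bladders. The groups overlapped for both channels.

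Atp12a, the catalytic subunit of the non-gastric proton and potassium pump, was just above the filter. Its signal was 39.6, 112 and 47.8 in null bladders, against 79.1, 54.1 and 63.3 in heterozygous bladders. Null 2 had the highest value and null 1 the lowest. The difference of −0.07 (95% interval −0.86 to 0.71, adjusted p = 0.985, limma) had the opposite sign under quantile normalization (0.03).

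**Figure D2:**
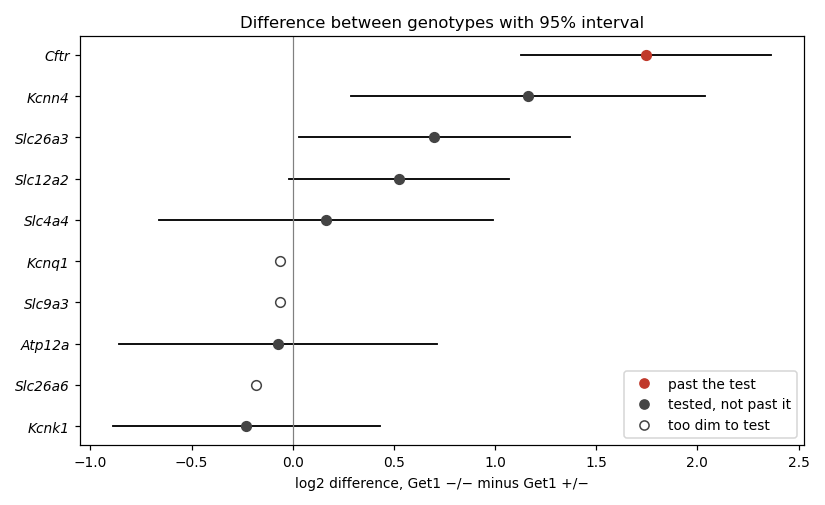
Difference between Get1 -/- and Get1 +/- bladders for the 10 transporter genes (log2 scale, horizontal axis) with its unadjusted 95% interval from limma, in order of size. Cftr at 1.74 is the gene past the test, and the open circles mark 3 genes too dim to test.

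**Figure D3:**
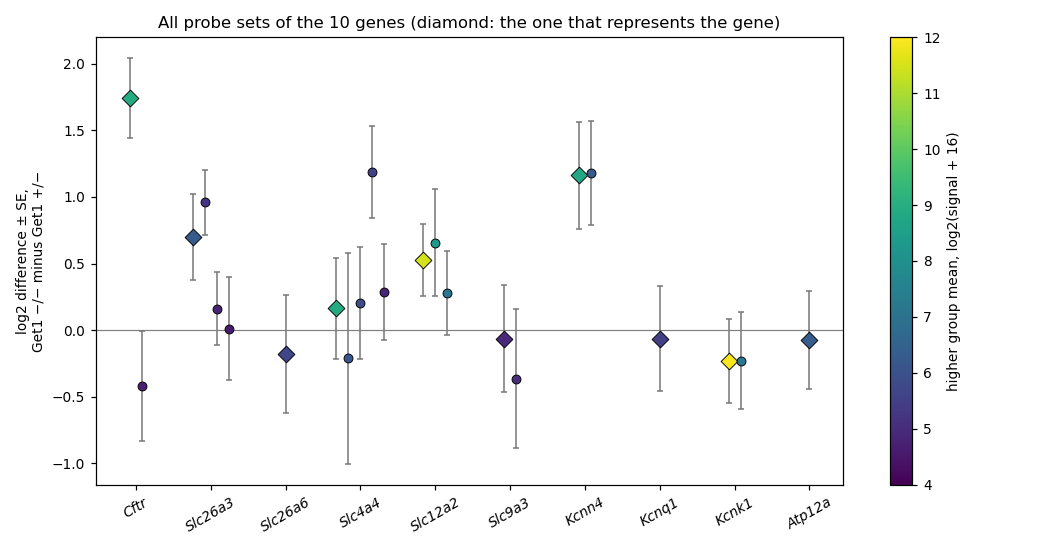
Difference (log2 scale, vertical axis) with its SE for each of the 23 probe sets of the 10 genes, coloured by the higher group mean. Diamonds are the probe sets that represent the genes. Both Kcnn4 probe sets lie near 1.2, both Kcnk1 probe sets near −0.2, and the Cftr probe sets lie on opposite sides of 0, at 1.74 and −0.42.

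Promoter sequence was read for the genes with the largest differences, to show how unlike these promoters are. The RefSeq table of assembly GRCm38.p6 held the start of 7 of the 10 genes, and the 250 bases before it are used. Slc12a2, Kcnq1 and Atp12a were not matched. The 3 windows below run 5′ to 3′ on the plus strand, from Cftr at chr6:18170437-18170686, Kcnn4 at chr7:24370013-24370262 and Slc26a3 at chr12:31437969-31438218. Capitals mark matches on either strand to the GC box GGGCGG, the TATA box TATAAA, the CCAAT box CCAAT, the Hnf4 pattern CAAAGNNCA, the Cdx pattern TTTATG or the grainyhead pattern AACNNGTT.
Cftr: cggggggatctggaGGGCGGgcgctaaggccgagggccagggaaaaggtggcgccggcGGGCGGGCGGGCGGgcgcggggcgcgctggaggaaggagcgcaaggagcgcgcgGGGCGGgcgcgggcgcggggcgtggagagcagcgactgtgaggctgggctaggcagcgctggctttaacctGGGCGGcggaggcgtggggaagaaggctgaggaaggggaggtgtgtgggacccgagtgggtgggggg
Kcnn4: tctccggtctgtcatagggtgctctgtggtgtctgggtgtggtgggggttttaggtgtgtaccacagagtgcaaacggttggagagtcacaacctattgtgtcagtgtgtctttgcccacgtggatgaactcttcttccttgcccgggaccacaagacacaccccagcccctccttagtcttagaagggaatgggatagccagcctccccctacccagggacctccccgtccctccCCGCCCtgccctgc
Slc26a3: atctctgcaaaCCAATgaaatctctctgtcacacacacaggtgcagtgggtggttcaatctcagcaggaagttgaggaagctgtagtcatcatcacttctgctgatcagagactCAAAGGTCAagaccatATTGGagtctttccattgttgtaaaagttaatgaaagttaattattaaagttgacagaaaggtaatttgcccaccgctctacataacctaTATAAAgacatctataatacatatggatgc

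The Cftr window was 76.4% G and C and held 6 GC boxes, 3 of them overlapping each other, and none of the other patterns. The Kcnn4 window was 58.8% G and C, with 1 GC box. The Slc26a3 window was 38.8% G and C, with 1 TATA box, 2 CCAAT boxes and 1 Hnf4 match. Over 32851 RefSeq windows of the same length, 32.7% held the GC box, 12.4% the TATA box, 33.8% the CCAAT box, 5.49% the Hnf4 pattern, 10.8% the Cdx pattern and 3.64% the grainyhead pattern. The Cdx and grainyhead letters were in 0 of the 8 windows of the 7 genes. A match is a description of letters, and these arrays measured no binding.

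Other genes of epithelial ion transport were read from 6 lists with 106 entries, of which 94 had a probe set and 59 were tested. Of the 59, 2 rose, Clca1 and Kcne3, and 0 fell (7 higher and 4 lower at an unadjusted p under 0.05, limma). Over all genes tested 0.448% were called higher and 0.0628% lower, and the unadjusted shares were 3.63% and 4.3%. Their median difference was 0.06, beside −0.03 over all genes tested.

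Clca1, a secreted protein of goblet cells that modulates calcium-activated chloride currents, had the largest difference. Its signal was 8819, 8568 and 9921 in null bladders, against 871, 795 and 936 in heterozygous bladders. The groups were far apart and each was tight. The level was 13.15 ± 0.11 in null against 9.78 ± 0.12 in heterozygous bladders (SD over 3 arrays each), a difference of 3.37 (SE 0.20, adjusted p = 3.1e-04, limma). A second, dimmer probe set differed by 2.56 with separate groups (adjusted p = 0.0839 over all named probe sets, limma).

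Kcne3, the subunit that holds Kcnq1 channels open in colon epithelium, had a signal of 649.9, 513 and 589 in null bladders, against 177, 111 and 130.0 in heterozygous bladders. The groups were separate, while Kcnq1 itself stayed under the filter as given above. The level was 9.22 ± 0.17 in null against 7.26 ± 0.31 in heterozygous bladders (SD over 3 arrays each), a difference of 1.96 (SE 0.24, adjusted p = 0.0105, limma). The call was lost without null 1, null 3, heterozygous 5 or heterozygous 6 (adjusted p = 0.0513, 0.0742, 0.0586 and 0.0521, limma), and the difference then lay between 1.83 and 1.95. The fit without null 1 is the one within title number 2. Over all named probe sets Kcne3 was not called (adjusted p = 0.0574, limma).

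Of 15 tested chloride channel genes, Clca1 was the 1 call, and Clic6 and Clic5, chloride intracellular channel proteins, had differences of 1.40 and 0.94 (adjusted p = 0.264 and 0.559, limma). The Clic6 probe set is, like that of Cftr, of a kind that can also match other transcripts. The other Clic6 probe set gave 0.71 (adjusted p = 0.659, limma), and averaging both gave 1.06 (adjusted p = 0.289, limma). Of 14 potassium channel genes and subunits, Kcne3 was the 1 call, and the inward rectifier Kcnj15 and the calcium-activated channel subunit Kcnmb4 had differences of −1.40 and −1.13 (adjusted p = 0.424 and 0.428, limma). Kcnj15 had a null mean of 5.44 and passed the filter through its heterozygous arrays. Of 6 anion exchangers and bicarbonate transporters 0 passed. Slc26a7, an anion transporter of stomach and kidney, had signals of 267, 389 and 551 in null bladders, against 872, 1127 and 990.4 in heterozygous bladders. Its groups were separate, with null below heterozygous, and the difference was −1.32 (adjusted p = 0.199, limma). With its probe sets averaged the difference was −0.65 (adjusted p = 0.601, limma). Slc26a11 and the sulfate transporter Slc26a2 had differences of 0.59 and 0.35 (adjusted p = 0.828 and 0.829, limma), and Slc26a11 passed the filter through its null arrays (heterozygous mean 5.53).

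Among 7 cation pump genes 0 passed. Fxyd4, a regulator of the sodium pump in colon and kidney, had signals of 238, 154 and 129 in null bladders, against 47.1, 2.01 and 22.9 in heterozygous bladders. The groups were separate and the difference was 2.38 (adjusted p = 0.125, limma). Its heterozygous mean of 5.14 was under the filter, which it passed through its null arrays. The sodium pump subunit Atp1b1 was also separate, with 12340, 12155 and 13254 in null bladders against 7091, 8696 and 6816 in heterozygous bladders (difference 0.75, adjusted p = 0.351, limma), and Atp1b2, another beta subunit, differed by −0.43 (adjusted p = 0.746, limma). Of the 7 pump genes 2 had separate groups with null above heterozygous and 1 with null below. Over all genes tested these shares were 6.07% and 7.36%. Of 10 cation-chloride cotransporters and their kinases 0 passed, with Slc12a8, Slc12a7 and the kinase Oxsr1 at 1.16, 0.71 and 0.27 (adjusted p = 0.482, 0.666 and 0.922, limma), Slc12a8 with a heterozygous mean of 5.78, just under the filter. Of 7 sodium-hydrogen exchangers and scaffolds 0 passed, with Slc9a2, Slc9a9 and Slc9a5 at 0.44, −0.28 and −0.53 (adjusted p = 0.809, 0.842 and 0.861, limma). At an unadjusted p under 0.05 (limma), 3 of the 15 chloride channel genes were higher. Of the 14 potassium channel genes 1 was higher and 3 were lower, and 1 of the 6 anion exchangers was lower. Higher were 2 of the 7 pump genes and 1 of the 10 cotransporters and kinases, and 0 of the 7 exchangers and scaffolds differed. Over all genes tested the shares at that level were 3.63% higher and 4.3% lower.

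**Figure D4:**
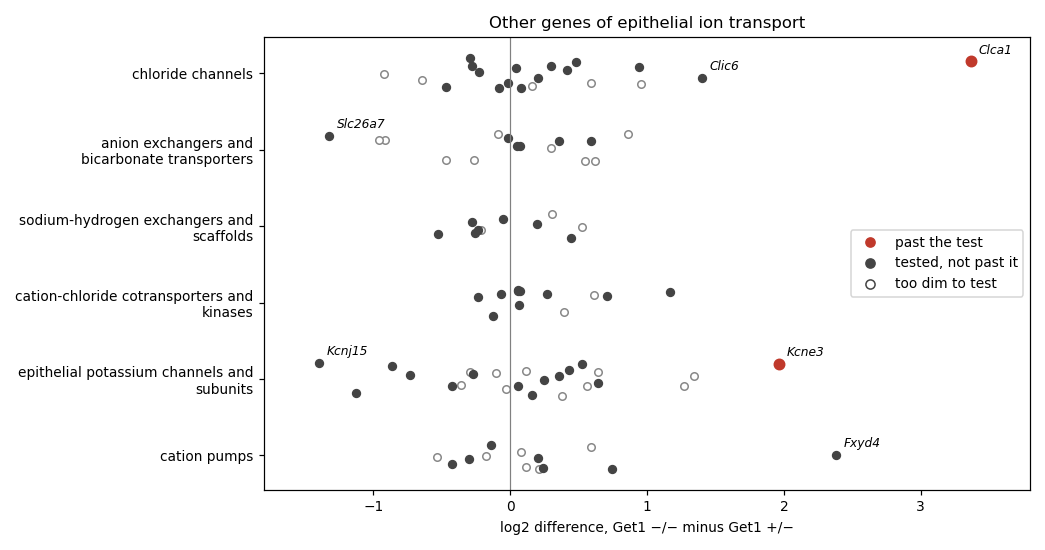
Difference between Get1 -/- and Get1 +/- bladders (log2 scale, horizontal axis) for the 94 other ion transport genes with a probe set, by list. Clca1 at 3.37 and Kcne3 at 1.96 are past the test, and Fxyd4, Clic6, Slc26a7 and Kcnj15 are named among those that are not.

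Gut markers were higher on the same null arrays. Of 15 tested intestinal markers 11 rose in null bladders and 0 fell. Of the 11, 8 had a heterozygous mean under the filter, so that they were tested through their null arrays. Over all genes tested 0.448% were called higher, and these markers were chosen with earlier results of these data known. Over the 19 with a probe set, which include Krt20, also made by umbrella cells, the summed signal was 24340 to 41202 in null and 1099 to 1515 in heterozygous bladders. The defining markers Cdx2, an intestinal transcription factor, and Muc2, the goblet cell mucin, had signals from 284 to 603 and from 303 to 851 in null bladders, against 3.09 to 27.5 and 2.52 to 39.3 in heterozygous bladders. These heterozygous values lay under the filter. Averaged over these markers, null arrays 1 to 3 exceeded the heterozygous mean by 2.78, 3.74 and 3.99, while Cftr exceeded its own heterozygous mean by 1.61, 1.88 and 1.75. Clca1 exceeded its heterozygous mean by 3.33, 3.28 and 3.50 and Kcne3 by 2.12, 1.79 and 1.98 on the same arrays. The part of these markers' cells in the transporter differences was not tested, and in whole bladders more cells of a type and more RNA per cell cannot be told apart.

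Markers shared by epithelia differed less. Of 12 pan-epithelial markers 0 passed the test (4 higher at an unadjusted p under 0.05, limma), and their summed signal was 52379 to 66707 in null and 38634 to 52643 in heterozygous bladders. The median difference of the 12 was 0.33. The 4 largest differences were those of Krt19, Cldn7, Epcam and Cdh1, at 1.15, 1.07, 1.06 and 0.84 with separate groups (adjusted p from 0.199 to 0.444, limma). Krt18 was separate the other way, with a difference of −0.50 (adjusted p = 0.633, limma). Over all genes tested 6.07% had separate groups with null above heterozygous and 7.36% with null below. Of 12 urothelial markers 2 fell, Snx31 and Upk2, and 0 rose (1 higher, Foxa1, and 3 lower at an unadjusted p under 0.05, limma). The shares called over all genes tested were 0.448% higher and 0.0628% lower, and the unadjusted shares were 3.63% and 4.3%. Snx31 had a null mean under the filter and was tested through its heterozygous arrays. The 12 differences ran from −5.58 to 0.82 with a median of −0.25, and 5 were above 0. The summed signal of the urothelial markers was 15327 to 18466 in null and 19108 to 25499 in heterozygous bladders. Smooth muscle, nerve and red blood cell lists had 0 calls among 10, 7 and 2 tested genes, with median differences of 0.24, −0.66 and −0.03 (3 higher, 2 lower and 0 at an unadjusted p under 0.05, limma). All 10 smooth muscle genes had differences above 0, and 4 had separate groups with null above. Of the 7 nerve genes 2 had separate groups with null below. The part of any of these lists in the transporter values was not tested.

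**Figure D5:**
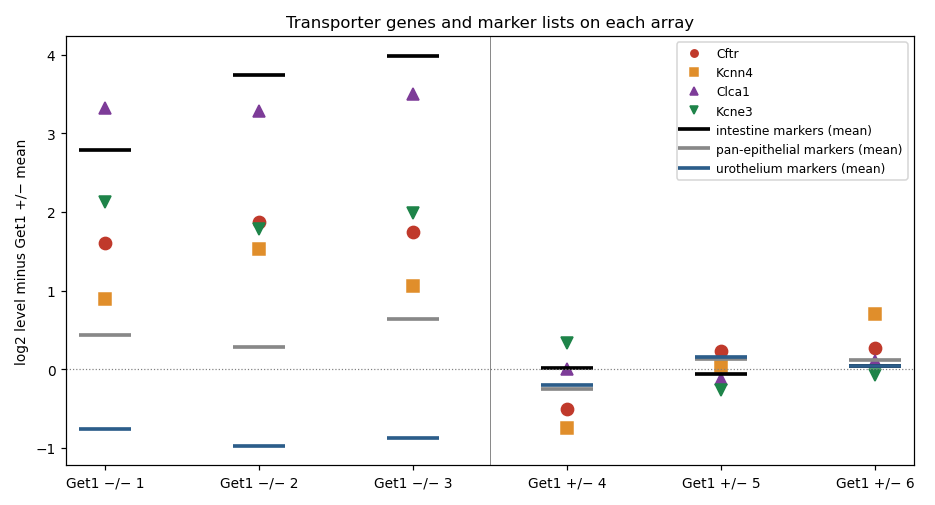
Level on each array minus the Get1 +/- mean (log2 scale, vertical axis) for Cftr, Kcnn4, Clca1 and Kcne3 (points), with the mean of the intestinal, pan-epithelial and urothelial markers (bars). On the 3 null arrays the intestinal mean is 2.78 to 3.99 and Cftr 1.61 to 1.88, while the urothelial mean is below 0. Of the 12 urothelial markers 5 have differences above 0, and the lowest are Snx31, Upk2 and Upk1a at −5.58, −3.03 and −2.36.

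The 5 tested genes whose levels followed Cftr most closely over the 6 arrays were Tjp3 (Pearson's r = 0.995), Ces1c (0.990), B4galnt2 (0.989), Spink4 (0.989) and Anxa13 (0.989). The 6 points are 2 separate groups of arrays that share their genotype, so r includes the group difference and is a description. Tjp3, a tight junction scaffold, differed by 0.95 and did not pass the test (adjusted p = 0.264, limma). The carboxylesterase Ces1c, the glycosyltransferase B4galnt2, the protease inhibitor Spink4 and the annexin Anxa13 had differences of 4.98, 2.75, 6.15 and 3.32 and were called (adjusted p from 7.3e-04 to 0.0219, limma). All 5 genes were picked for following Cftr, whose groups are separate, so these calls follow in part from the choice and are also a description. Ces1c, Spink4 and Anxa13 had heterozygous means of 5.11, 5.29 and 5.07, under the filter, and were tested through their null arrays. The call of B4galnt2 was lost with its probe sets averaged (1.13, adjusted p = 0.199, limma), that of Ces1c with an offset of 1 (adjusted p = 0.0534, limma), and that of Anxa13 with an offset of 1 (adjusted p = 0.267, limma) and when null 2, null 3 or heterozygous 6 was left out (0.106, 0.113 and 0.103 as adjusted p, limma).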

How the data were processed

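RNA of 6 bladder samples was measured on 1 array each, 3 Get1 -/- and 3 Get1 +/-, grouped by the sample titles. The authors deposited an intensity per probe set, on a linear scale. Per the submitters' processing notes, PLIER 2.0 and Affymetrix Expression Console 1.1 were used. No source used here gives the background step, the normalization or the probes' genome build. The arrays' upper quartiles were 336 to 372. The labels describe a sense-strand labelling kit, and whether it was used on this type of array is unsettled. The number of arrays limits the precision.

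From these values log2(signal + 16) was computed. Of 45101 probe sets 64 were controls, 34945 had exactly 1 gene symbol, 932 several and 9160 none here, and those with several named no gene. The values were fitted in R 4.3.3 with limma 3.58.1 (lmFit, then eBayes, two-sided, no covariates, Benjamini-Hochberg over 12735 genes, threshold 0.05), and the fit was tested on simulated data. Errors of means are SDs, and SE is limma's moderated standard error.

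The members and the lists were chosen with earlier results of these data known. Named are all 10 members, each called gene of the transport lists and up to 3 per list with the smallest p, the 5 genes most correlated with the member of smallest p, Grhl3 and defining markers. Alternatives were the offset, the dim filter, the probe set choice, the normalization, the variance model, array weights and leaving out each array.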

Additional observations from a re-analysis of the deposited data

How the results depend on the processing

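Under 16 alternative settings, 10 in processing and 6 that each left out 1 array, no transporter among the 10 was called lower. Cftr was called in 7 of the 16. The count of called members was 0 with an offset of 1 (Cftr 1.87, adjusted p = 0.0785, limma, 3 higher at an unadjusted p under 0.05), without a filter (adjusted p = 0.0806, 2 higher) and with probe sets averaged (0.66, adjusted p = 0.617, 1 higher), and ranged from 0 to 0 with 1 array left out (1 to 3 higher). The count of other transport genes called higher was 2 in all 10 processing alternatives and ranged from 1 to 2 with 1 array left out. Clca1 was called in 16 of 16 and Kcne3 in 12 of 16.

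Of 125 member values under alternatives 8 had the opposite sign. They were the second Cftr probe set (−0.42), a Slc4a4 probe set (−0.21), Slc4a4 (−0.16 to 0.56) and Kcnk1 (−0.39 to 0.062) with 1 array left out, and Atp12a with quantile normalization (0.030) and with 1 array left out (−0.44 to 0.16). Oxsr1 was −0.0068 with array weights and −0.15 to 0.61 with 1 array left out, and Slc9a9 was 0.026 with probe sets averaged. The causes were not tested. No paired analysis was made, because the sample titles name no litter or pair. Their running numbers, 1 to 3 for null and 4 to 6 for heterozygous arrays, do not show whether any samples belong together. Dim signals limit Slc26a3, Slc26a6, Slc9a3, Kcnq1 and Atp12a, for which no detection calls were used.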
